A study of Mus musculus with 4 samples.

Results

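The genes described here are 54 that act in mitosis and chromosome segregation, from the cyclins that start division to the proteins that pull the chromosomes apart and split the cell. They were taken by name, as every non-control probe whose gene name on the array is one of the 54, and all 54 were found, with 109 of 56605 probes and 54 of 37323 genes and transcripts on the array. Their messenger RNA was measured in RAW264.7, a mouse macrophage cell line that divides in culture, on 4 one-colour arrays of 1 slide. The study asked how loss of Hsd17b4 changes gene expression in these cells and how treatment with lipopolysaccharide (LPS), the bacterial outer membrane component that activates macrophages, bears on it. The groups were Mfp2-/- cells with LPS, Mfp2-/- cells without LPS, wild-type cells with LPS and wild-type cells without LPS, with 1 array each. Mfp2 is another name of the product of Hsd17b4, a peroxisomal enzyme of fatty acid beta-oxidation, and the Mfp2-/- cells are called knockout. The sources used here do not give the dose or duration of LPS, how the knockout was made or whether it is 1 clone.

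Mitosis runs as a fixed order of steps, and the genes are grouped by the step they serve. Cyclin B with the kinase Cdk1 drives entry, condensin and topoisomerase pack and untangle the chromosomes, kinesins build the spindle, kinetochore proteins tie each chromosome to it, and the spindle checkpoint holds back the anaphase-promoting complex until all are attached, after which the cell is cleaved. Most of these messenger RNAs are made in the later part of the cell cycle and are low in cells that do not divide, so they are widely read as a measure of how much a population is dividing. In a bulk sample fewer dividing cells and less RNA per dividing cell cannot be told apart, and that holds for every value below.

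Values are log2 signals, scaled so that 0 is the 75th percentile of an array, and a log2 value compares 1 probe between arrays, not 1 gene with another. A response to LPS is the LPS array minus the untreated array of the same genotype, and a gene was counted as higher or lower at a difference of at least 2-fold, which is 1 on the log2 scale. With 1 array per group no difference has a replicate check, no p-value is given, and the number of arrays limits the precision. Position on the slide cannot be told apart from group. The spread between replicate spots within an array put the technical SD at 0.13 for the LPS response in knockout, 0.0768 in wild type and 0.151 for the difference of the responses, and it leaves out the variation between cultures. On each array 47.4% to 49.7% of non-control spots passed the scanner's flag for signal well above background, and 0 were saturated. Hsd17b4 had a log2 signal of 2.0 in knockout cells with LPS and 2.78 in untreated knockout cells, against 3.18 in wild-type cells with LPS and 3.65 in untreated wild-type cells, so knockout minus wild type was -1.17 with LPS and -0.86 without, and 1 probe does not check which part of the gene was changed. Of 11 macrophage markers 9 were above background on all 4 arrays, including Lyz2, Cd68 and Itgam, and Mrc1 and Cd163 were on none. With LPS 2 of these 9 were higher and 1 lower in knockout, and 3 were higher and 0 lower in wild type. Adgre1, the F4/80 antigen, gave responses of 3.04 in knockout and 2.10 in wild type, and Cd14, the co-receptor for LPS, 1.64 in knockout and 1.25 in wild type. Csf1r, the receptor for the macrophage growth factor, gave -1.42 in knockout and -0.73 in wild type. Fcgr1, an Fc receptor, gave 0.36 in knockout and 2.0 in wild type, a difference of -1.64, and was 1.61 higher in untreated knockout than in untreated wild type. Spi1 and Ptprc stayed under 2-fold in every comparison. Of 15 markers of other cell types 9 were above background on no array, among them Col1a1 and Epcam, and Cd3e, Itgax and S100a8 were on all 4. Itgax, a dendritic cell marker that macrophages also express, stood at 0.80 with LPS against untreated in knockout and was higher with LPS in wild type at 2.19, and it was 1.32 higher in untreated knockout than in untreated wild type. Averaging all Itgax probes put the difference of its responses at -0.85, in place of -1.38, and the untreated difference at 0.57. The epithelial cadherin Cdh1 was dim, at -6.11 in knockout with LPS and -3.78 in untreated knockout, against -2.94 in wild type with LPS and -6.0 in untreated wild type, and was above background on the array of untreated knockout and that of wild type with LPS. With the dim array of a pair set to its bound, Cdh1 was at least 1.06 higher with LPS in wild type and passed 2-fold downwards in knockout minus wild type with LPS (-1.0), and normexp background correction put these bounds at 0.39 and -0.20, under 2-fold. Flt3, of early blood and dendritic cells, was above background in knockout with LPS alone, with a bound of 0.69 for its response there. Pecam1, Cd3e and S100a8 stayed under 2-fold wherever they were compared. The part of the markers in the results was not tested.

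All 54 mitosis genes had less signal with LPS than without in both genotypes, and the decrease was the smaller one in knockout cells for 53 of them. In knockout cells 40 of 54 were lower and 0 higher, with a median response of -1.29, where 12.5% of all genes compared were lower and 11% higher, with a median of -0.01. In wild-type cells 54 of 54 were lower and 0 higher, with a median response of -2.06, where 8.6% of all genes compared were lower and 9.68% higher, with a median of 0.01. The 40 genes lower in knockout were among the 54 lower in wild type, so 14 passed 2-fold in wild type only. The share of all genes that did so is not given, so that count has nothing to be read against. Of all 15617 genes above background on all 4 arrays, 6.08% were lower in both genotypes and 41% lay below 0 in both. All 54 mitosis genes were above background on all 4 arrays, so none was set to a bound. Without LPS the median of the 54 genes was 4.06 in knockout and 4.05 in wild-type cells, and with LPS it was 2.89 in knockout and 2.38 in wild-type cells. The lowest of the 54 was 0.98 in untreated knockout and 1.15 in untreated wild-type cells.

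**Figure D1:**
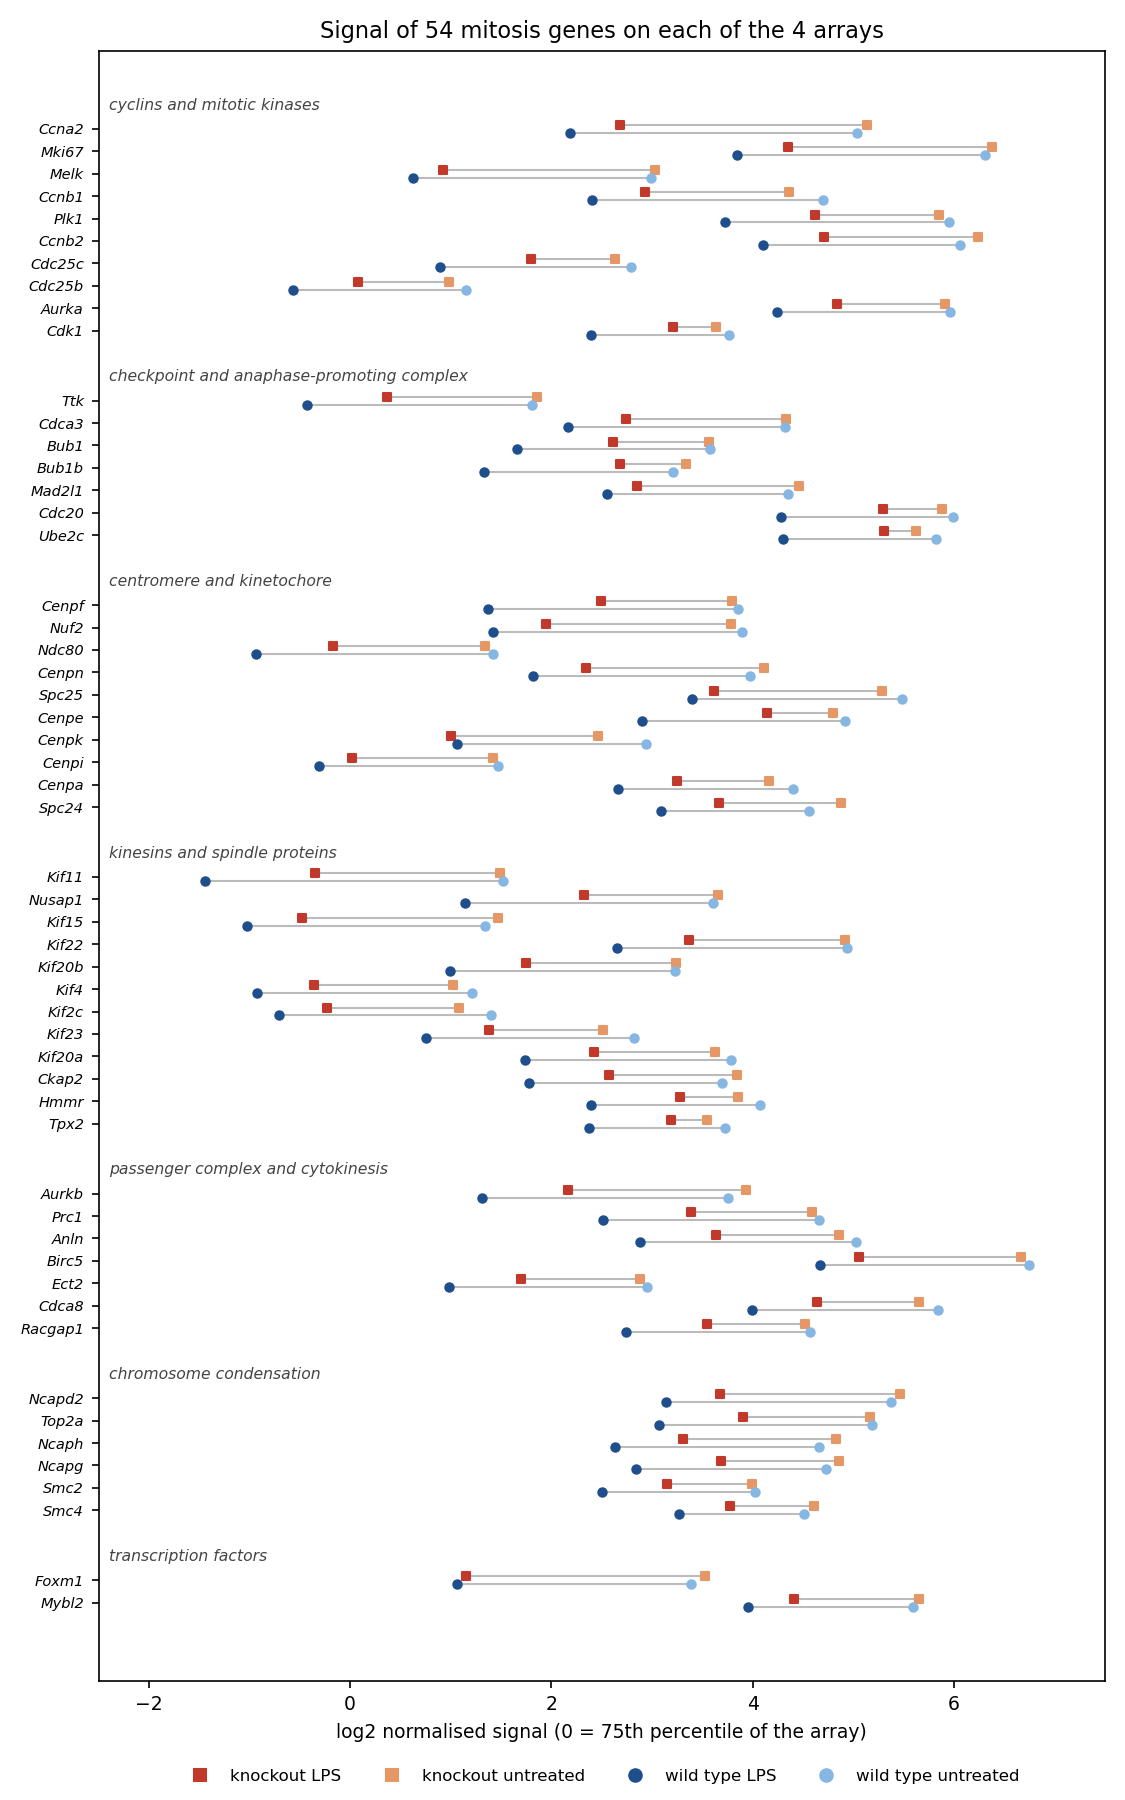
Log2 normalised signal (horizontal axis, 0 is the 75th percentile of the array) of the 54 mitosis genes, grouped by role, with 1 point per array: knockout with LPS (red squares), untreated knockout (orange squares), wild type with LPS (dark blue circles) and untreated wild type (light blue circles), and a grey line joining the arrays of 1 genotype. The untreated points of the genotypes lie close together, the LPS points lie to the left of them in every row, and the knockout LPS point lies to the right of the wild-type LPS point in every row but that of Cenpk (1.0 against 1.06).

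Many promoters of mitosis genes in mouse and human carry a cell cycle genes homology region (CHR), the element that the MuvB core of the DREAM and MYB-MuvB complexes binds, with CCAAT boxes, which NF-Y binds, near it. Promoter windows from RefSeq (build GRCm38.p6, from 250 bases before to 50 bases after the start of transcription) were found by symbol for 46 of the 54 genes, in 50 windows. A CHR (TTTGAA or TTCGAA, on either strand) was in 74% of these 50 windows, against 19.2% of all 32851 windows. A CCAAT box (CCAAT on either strand) was in 76% of them, against 37.4% of all windows, and both were in 64%, against 7.52% of all. An E2F core was in 24%, against 9.57% of all windows, where TTGGCGC was counted on either strand, as were the letters TTCCCGC, and likewise the letters TTCGCGC, and so were the letters TTGCCGC. None of these motifs holds another within it. In the 250 bases before the start alone a CHR was in 38% of the 50 windows, against 17.1% of all, so matches in the mitosis genes also lie in the 50 bases after the start. The 6 genes with the largest LPS responses among those with both motifs are shown, as the 250 bases before the start, 5′ to 3′ on the strand of the gene, with CHR and CCAAT matches in capitals.
Kif11: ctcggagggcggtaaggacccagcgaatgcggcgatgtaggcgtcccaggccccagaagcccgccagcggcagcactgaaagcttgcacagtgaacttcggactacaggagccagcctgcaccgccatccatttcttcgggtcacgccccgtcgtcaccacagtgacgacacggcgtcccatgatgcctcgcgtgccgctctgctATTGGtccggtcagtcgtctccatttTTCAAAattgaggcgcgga
Mki67: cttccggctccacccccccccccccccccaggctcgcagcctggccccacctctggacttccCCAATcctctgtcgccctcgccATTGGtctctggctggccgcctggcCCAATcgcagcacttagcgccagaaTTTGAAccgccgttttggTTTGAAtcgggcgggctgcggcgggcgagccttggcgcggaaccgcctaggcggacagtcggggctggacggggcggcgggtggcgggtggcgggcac
Ncapd2: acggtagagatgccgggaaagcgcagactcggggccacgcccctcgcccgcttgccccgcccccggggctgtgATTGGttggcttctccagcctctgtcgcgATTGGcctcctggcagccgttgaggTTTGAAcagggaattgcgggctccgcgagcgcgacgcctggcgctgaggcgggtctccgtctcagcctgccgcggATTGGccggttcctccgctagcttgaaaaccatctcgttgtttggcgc
Cenpn: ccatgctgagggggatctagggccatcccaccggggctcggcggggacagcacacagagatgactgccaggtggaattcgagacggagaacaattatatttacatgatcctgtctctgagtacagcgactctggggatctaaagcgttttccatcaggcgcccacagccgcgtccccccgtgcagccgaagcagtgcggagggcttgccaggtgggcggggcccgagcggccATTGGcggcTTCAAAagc
Kif22: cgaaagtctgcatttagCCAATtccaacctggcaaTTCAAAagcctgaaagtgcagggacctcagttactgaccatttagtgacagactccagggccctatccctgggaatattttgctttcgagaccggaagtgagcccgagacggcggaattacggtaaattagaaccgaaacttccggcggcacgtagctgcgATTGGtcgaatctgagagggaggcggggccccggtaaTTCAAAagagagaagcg
Cenpf: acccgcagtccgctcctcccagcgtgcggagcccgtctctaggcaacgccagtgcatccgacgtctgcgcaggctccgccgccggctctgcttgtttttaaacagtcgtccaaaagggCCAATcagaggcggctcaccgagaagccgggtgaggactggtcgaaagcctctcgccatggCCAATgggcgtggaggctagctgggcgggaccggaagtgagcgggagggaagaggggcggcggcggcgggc
The stretches are chr19:37376132-37376381 on the plus strand for Kif11, chr7:135716380-135716629 on the minus strand for Mki67, chr6:125191587-125191836 on the minus strand for Ncapd2, chr8:116921490-116921739 on the plus strand for Cenpn, chr7:127042421-127042670 on the minus strand for Kif22 and chr1:189688087-189688336 on the minus strand for Cenpf. Counted with the last base before the start as -1, the CHR letters begin at -19 in Kif11, at -9 in Cenpn and at -17 in Kif22, each with a CCAAT box upstream of it that begins at -45 in Kif11, -18 in Cenpn and -54 in Kif22. In Mki67 they begin at -116 and -98 and in Ncapd2 at -123, and Kif22 has a further match at -215. The CHR match of Cenpf begins at base 3, counting the start as 1, and is not in the stretch shown, where its CCAAT boxes begin at -132 and -71. A match describes letters only. The 35 genes with a CHR had median LPS responses of -1.24 in knockout and -2.09 in wild type, and the 11 genes without one -1.46 in knockout and -2.02 in wild type. The difference of the responses had a median of 0.81 in the 35 genes and 0.47 in the 11. With a CCAAT box it was 0.82 (34 genes), and without one 0.57 (12 genes). With an E2F core it was 0.50 (11 genes), and without one 0.81 (35 genes). All of these are descriptions with no test.

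Of 10 cyclins, kinases and phosphatases of entry into mitosis, counted with the chromosome protein Mki67, 7 were lower by 2-fold with LPS in knockout (median -1.33) and 10 in wild type (median -2.09). Ccna2, the cyclin of S phase and early mitosis, had a log2 signal of 2.68 in knockout cells with LPS and 5.14 in untreated knockout cells, against 2.19 in wild-type cells with LPS and 5.04 in untreated wild-type cells. Its response was -2.46 in knockout and -2.85 in wild type, the largest decrease of the 54 genes in knockout, which left 18.2% of the untreated signal in knockout and 13.8% in wild type. Mki67, which coats mitotic chromosomes and is the usual proliferation marker, was at 4.35 with LPS and 6.38 without LPS in knockout cells, and 3.84 with LPS and 6.31 without LPS in wild-type cells. That is 4.06-fold lower with LPS in knockout and 5.54-fold lower in wild type, with the untreated arrays 0.06 apart. Ccnb1, the partner of Cdk1 at the entry into mitosis, had 2.94 in LPS-treated and 4.36 in untreated knockout cells, against 2.41 in LPS-treated and 4.70 in untreated wild-type cells. The untreated arrays differed by -0.34 for Ccnb1, so with LPS the genotypes were 0.53 apart although the responses differed by 0.87. Other Ccnb1 probes above background on all 4 arrays gave -0.18, -0.49 and -1.63 in knockout and -1.43, -1.56 and -2.39 in wild type. Their differences of the responses were 1.25, 1.07 and 0.76, so whether Ccnb1 passed 2-fold in knockout depended on the probe. Melk, a kinase of dividing cells, was at 0.92 in knockout cells with LPS and 3.03 in untreated knockout cells, against 0.63 in wild-type cells with LPS and 2.99 in untreated wild-type cells. Its responses were among the most alike of the list, at -2.10 in knockout and -2.36 in wild type. Cdc25c, the phosphatase that activates Cdk1, had 1.80 with LPS and 2.64 without LPS in knockout cells, and 0.90 with LPS and 2.80 without LPS in wild-type cells. It reached 2-fold in wild type (-1.90) and not in knockout (-0.84), and the responses differed by 1.06, past 2-fold. Of the other 5 genes in the list, Cdk1 gave the smallest decrease in both genotypes, at -0.43 in knockout and -1.38 in wild type. The others were Ccnb2, Plk1, Aurka and Cdc25b, with responses from -1.53 to -0.91 in knockout and from -2.23 to -1.72 in wild type.

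The list of spindle checkpoint genes with Cdc20, Ube2c and Cdca3 showed the widest gap between the genotypes by median of the 7 role lists. It holds no core subunit of the anaphase-promoting complex, and those subunits are described in a separate list below. Lower were 3 of 7 genes in knockout (median -0.95) and 7 of 7 in wild type (median -1.88). Bub1b, the BubR1 protein of the checkpoint, had a log2 signal of 2.68 in knockout cells with LPS and 3.33 in untreated knockout cells, against 1.33 in wild-type cells with LPS and 3.21 in untreated wild-type cells. The wild-type array with LPS stood well below the other arrays in this gene, and LPS-treated knockout cells had 2.55 times the signal of LPS-treated wild-type cells. Cdc20, the activator of the complex that the checkpoint holds, was at 5.30 with LPS and 5.88 without LPS in knockout cells, and 4.28 with LPS and 6.0 without LPS in wild-type cells. Ube2c, the ubiquitin-conjugating enzyme that works with the complex, had 5.31 in LPS-treated and 5.63 in untreated knockout cells, against 4.30 in LPS-treated and 5.82 in untreated wild-type cells. Ube2c gave the smallest decrease of all 54 genes in knockout, -0.32, and kept 80.1% of its untreated signal there, against 34.8% in wild type. Ttk, the Mps1 kinase that starts checkpoint signalling, read 0.36 in knockout cells with LPS and 1.86 in untreated knockout cells, against -0.42 in wild-type cells with LPS and 1.81 in untreated wild-type cells. Cdca3, a cofactor in the destruction of the Cdk1 inhibitor Wee1, was at 2.74 with LPS and 4.34 without LPS in knockout cells, and 2.17 with LPS and 4.32 without LPS in wild-type cells. Both were lower in both genotypes, Ttk at -1.5 in knockout and -2.24 in wild type and Cdca3 at -1.59 in knockout and -2.15 in wild type. Mad2l1, the Mad2 protein that binds Cdc20, had 2.85 in LPS-treated and 4.47 in untreated knockout cells, against 2.56 in LPS-treated and 4.35 in untreated wild-type cells. Its responses of -1.61 in knockout and -1.79 in wild type differed by 0.18, close to the technical SD and the smallest gap in the list. Bub1, the kinase that brings checkpoint proteins to the kinetochore, was at 2.61 in knockout cells with LPS and 3.57 in untreated knockout cells, against 1.66 in wild-type cells with LPS and 3.58 in untreated wild-type cells. It was lower by 2-fold in wild type (-1.92), while knockout gave -0.95.

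Of the 10 centromere and kinetochore genes 8 were lower in knockout (median -1.43) and 10 in wild type (median -2.06). Nuf2 and Ndc80, subunits of the Ndc80 complex that holds microtubules, moved much alike. Nuf2 had a log2 signal of 1.95 in knockout cells with LPS and 3.78 in untreated knockout cells, against 1.42 in wild-type cells with LPS and 3.89 in untreated wild-type cells. Ndc80 was at -0.17 with LPS and 1.34 without LPS in knockout cells, and -0.93 with LPS and 1.42 without LPS in wild-type cells. The responses were -1.84 in knockout and -2.47 in wild type for Nuf2, and -1.5 in knockout and -2.35 in wild type for Ndc80. The other subunits of that complex, Spc24 and Spc25, gave -1.21 and -1.66 in knockout and -1.47 and -2.09 in wild type. Cenpa, the histone variant that marks the centromere, Cenpi and Cenpk gave responses from -1.46 to -0.92 in knockout and from -1.88 to -1.74 in wild type. Cenpn, which binds the Cenpa nucleosome of the centromere, was at 2.35 in LPS-treated and 4.12 in untreated knockout cells, against 1.82 in LPS-treated and 3.97 in untreated wild-type cells. Cenpf, a large protein of the outer kinetochore, had 2.50 in knockout cells with LPS and 3.80 in untreated knockout cells, against 1.38 in wild-type cells with LPS and 3.86 in untreated wild-type cells. Cenpf left 40.6% of its untreated signal in knockout and 17.9% in wild type, and its responses differed by 1.18. Cenpe, the kinesin that carries chromosomes to the spindle equator, read 4.14 with LPS and 4.79 without LPS in knockout cells, and 2.90 with LPS and 4.92 without LPS in wild-type cells. Cenpe had the largest difference of the responses among the 54 genes, 1.37: knockout gave -0.65 and did not reach 2-fold, and wild type gave -2.02. Cenpk, of the inner kinetochore, was the only one of the 54 genes with less signal in knockout than in wild type with LPS, at -0.06, and it had the lowest untreated difference, -0.48. The 2 further Cenpk probes above background gave untreated differences of 0.18 and -0.01 and differences with LPS of 0.05 and -0.11, so the Cenpk probes did not show 1 direction.

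Of the 12 kinesins and spindle proteins 10 were lower by 2-fold in knockout (median -1.32) and 12 in wild type (median -2.12). Kif11, the motor that pushes the spindle poles apart, had a log2 signal of -0.35 in knockout cells with LPS and 1.49 in untreated knockout cells, against -1.45 in wild-type cells with LPS and 1.52 in untreated wild-type cells. Its probe lies at chr19:37495755-37495814 in the mm9 coordinates of the array files, and its wild-type response of -2.97, or 7.82-fold lower, was the largest decrease of the 54 genes in wild type, against -1.84 in knockout. Nusap1, a microtubule-binding protein of the spindle, was at 2.33 with LPS and 3.65 without LPS in knockout cells, and 1.14 with LPS and 3.61 without LPS in wild-type cells. Kif15, which helps keep the spindle poles apart, read -0.48 in LPS-treated and 1.47 in untreated knockout cells, against -1.02 in LPS-treated and 1.34 in untreated wild-type cells. Kif22, the motor that moves chromosome arms, had 3.37 in knockout cells with LPS and 4.91 in untreated knockout cells, against 2.66 in wild-type cells with LPS and 4.94 in untreated wild-type cells. In these 4 genes the untreated arrays of the genotypes were within 0.13 of each other, and the wild-type array with LPS was the lowest of the 4 arrays. Hmmr, a spindle assembly factor, was at 3.28 with LPS and 3.85 without LPS in knockout cells, and 2.40 with LPS and 4.08 without LPS in wild-type cells. Tpx2, the activator of Aurka on the spindle, had 3.19 in LPS-treated and 3.55 in untreated knockout cells, against 2.37 in LPS-treated and 3.73 in untreated wild-type cells. Neither reached 2-fold in knockout, where Hmmr gave -0.58 and Tpx2 -0.36, and both did in wild type, where Hmmr gave -1.68 and Tpx2 -1.36. The other 6 genes, Kif20a, Kif20b, Kif23, Kif2c, Kif4 and Ckap2, had responses from -1.48 to -1.14 in knockout and from -2.23 to -1.92 in wild type.

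The chromosomal passenger complex and the cytokinesis proteins were lower in 6 of 7 cases in knockout (median -1.20) and 7 of 7 in wild type (median -2.08). Aurkb, the kinase of the passenger complex, had a log2 signal of 2.17 in knockout cells with LPS and 3.94 in untreated knockout cells, against 1.31 in wild-type cells with LPS and 3.76 in untreated wild-type cells. Birc5, the survivin subunit that brings it to the centromere, was at 5.06 with LPS and 6.67 without LPS in knockout cells, and 4.67 with LPS and 6.75 without LPS in wild-type cells. Aurkb gave -1.77 in knockout and -2.45 in wild type and Birc5 -1.60 in knockout and -2.08 in wild type, while Cdca8, the borealin subunit, gave -1.02 in knockout and -1.85 in wild type. Prc1, which bundles the microtubules of the spindle midzone, read 3.39 in LPS-treated and 4.59 in untreated knockout cells, against 2.51 in LPS-treated and 4.66 in untreated wild-type cells. Anln, a scaffold of the contractile ring, had 3.64 in knockout cells with LPS and 4.86 in untreated knockout cells, against 2.89 in wild-type cells with LPS and 5.03 in untreated wild-type cells. Prc1 and Anln stood near each other in response, at -1.20 and -1.22 in knockout and -2.15 and -2.14 in wild type. Ect2 and Racgap1, which switch on the cleavage furrow, gave -1.19 and -0.98 in knockout and -1.98 and -1.82 in wild type, so Racgap1 was the member of this list that missed 2-fold in knockout.

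Condensin and topoisomerase genes were lower in 4 of 6 cases in knockout (median -1.21) and 6 of 6 in wild type (median -1.95). Ncapd2, a subunit of condensin I, had a log2 signal of 3.67 in knockout cells with LPS and 5.47 in untreated knockout cells, against 3.14 in wild-type cells with LPS and 5.38 in untreated wild-type cells. Ncaph, the kleisin that closes the condensin I ring, was at 3.31 with LPS and 4.83 without LPS in knockout cells, and 2.64 with LPS and 4.66 without LPS in wild-type cells. Ncapg, another subunit of condensin I, read 3.69 in LPS-treated and 4.86 in untreated knockout cells, against 2.84 in LPS-treated and 4.73 in untreated wild-type cells. These 3 subunits had responses from -1.79 to -1.17 in knockout and from -2.23 to -1.88 in wild type. Smc2 and Smc4, the ATPase pair shared by condensin I and II, gave -0.84 and -0.84 in knockout and -1.52 and -1.24 in wild type, and -1.24 was the smallest decrease of the 54 genes in wild type. Top2a, the topoisomerase that untangles sister chromatids, had 3.91 in knockout cells with LPS and 5.16 in untreated knockout cells, against 3.07 in wild-type cells with LPS and 5.19 in untreated wild-type cells. Its response was -1.26 in knockout and -2.12 in wild type on this probe.

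Foxm1 and Mybl2 encode transcription factors that switch on genes of late cell cycle, Mybl2 as the B-MYB partner of MuvB. Foxm1 had a log2 signal of 1.15 in knockout cells with LPS and 3.53 in untreated knockout cells, against 1.06 in wild-type cells with LPS and 3.39 in untreated wild-type cells. It fell about equally in both genotypes, at -2.38 in knockout and -2.33 in wild type, and was the 1 gene of the 54 whose decrease was not smaller in knockout, by -0.05, within the technical SD. A dimmer Foxm1 probe gave -1.59 in knockout and -2.54 in wild type, so its probes disagreed on the difference of the responses, -0.05 against 0.95. Mybl2 was at 4.41 with LPS and 5.65 without LPS in knockout cells, and 3.96 with LPS and 5.60 without LPS in wild-type cells. It fell by 1.24 in knockout and by 1.64 in wild type.

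The responses of the genotypes followed each other across the 54 genes, with Pearson's r of 0.766 and Spearman's rho of 0.769, a description over genes that share 4 arrays. The LPS response in knockout and the LPS response in wild type have no array in common, but the difference between them is built from both. That difference, knockout minus wild type, had a median of 0.75 over the 54 genes and was above 0 in 53. Over all 15617 genes its median was 0.00, and 50.3% were above 0. It passed 2-fold upwards in 10 of the 54 genes, where 1.68% of all genes did, and downwards in 0, where 2.91% of all genes did. The 10 were Cenpe at 1.37, Bub1b at 1.22, Ube2c at 1.21, Cenpf at 1.18, Nusap1 at 1.15, Kif11 at 1.13, Cdc20 at 1.13, Hmmr at 1.1, Cdc25c at 1.06 and Tpx2 at 1.0. Normexp background correction left 6 of the 54 genes past 2-fold upwards, and 145 of all 15617 in place of 263. Centring the arrays on their medians gave 16 of the 54, and 358 of all 15617. Which genes passed also depended on the probe, as given below. The probes of Cenpe and Bub1b, the leading pair, lie at chr3:134936387-134936446 and chr2:118466830-118466889 in mm9 coordinates. By role the median difference was 0.97 in the checkpoint list, 0.83 in the passenger and cytokinesis list, 0.82 in the kinesin and spindle list and 0.73 in the cyclin and kinase list. It was lower in the condensation list at 0.59, in the kinetochore list at 0.53 and in the 2 transcription factors at 0.18.

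**Figure D2:**
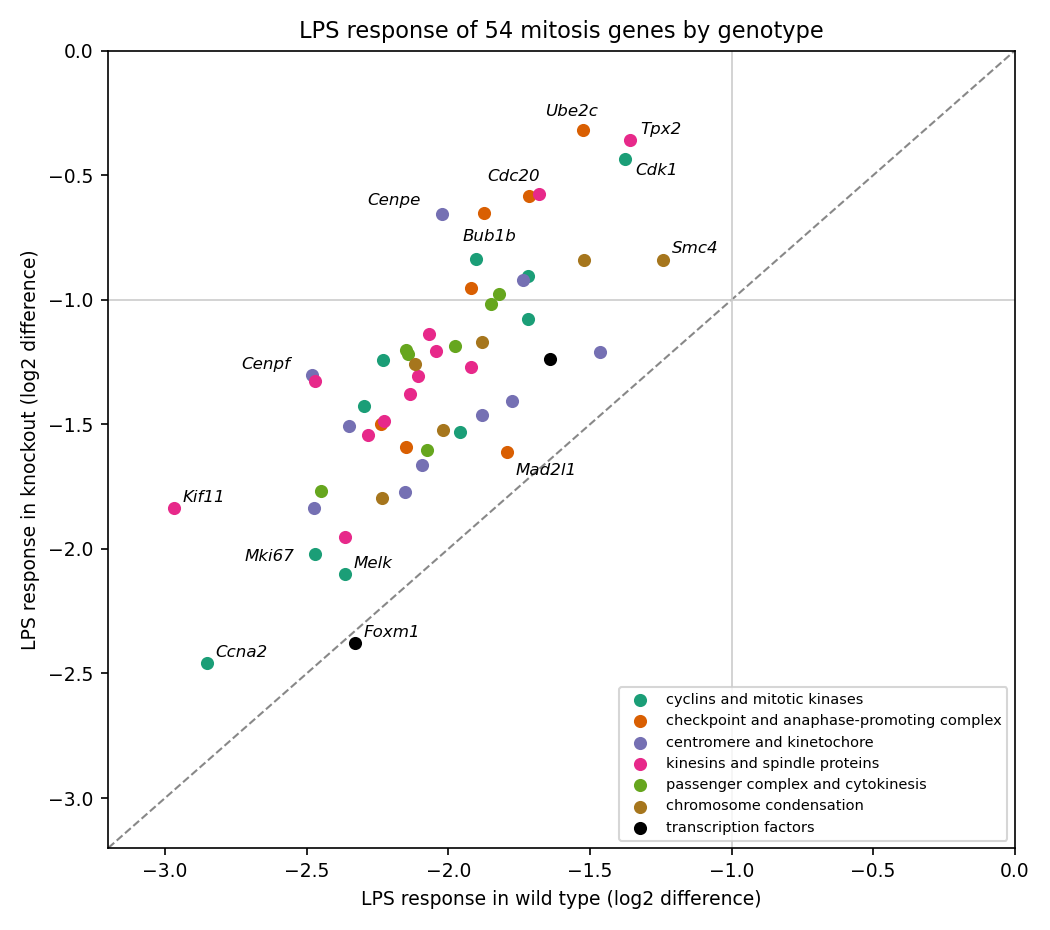
LPS response in knockout (vertical axis) against LPS response in wild type (horizontal axis), both as log2 differences, with 1 point per mitosis gene coloured by role, grey lines at 2-fold and a dashed line where the responses are equal. All 54 points lie left of the vertical 2-fold line, 14 lie above the horizontal one, and 53 lie above the dashed line, with Foxm1 just below it.

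With LPS 53 of the 54 genes had more signal in knockout than in wild-type cells, 7 of them by at least 2-fold, and without LPS 0 of 54 differed by 2-fold. The difference with LPS had a median of 0.66 and was above 0 in 98.1% of the 54 genes, against a median of 0.04 and 55.7% above 0 over all genes compared. It passed 2-fold upwards in 7 genes, where 1.84% of all genes did, and downwards in 0, where 4.39% of all did. The 7 were Bub1b at 2.55-fold, Cenpe at 2.36-fold, Nusap1 at 2.28-fold, Cenpf at 2.18-fold, Kif11 at 2.14-fold, Cdc20 at 2.02-fold and Ube2c at 2.01-fold. All 7 were also among the 10 above, which share the LPS arrays with this comparison. Cdc20 and Ube2c lay just past 2-fold, and the nearest gene below it was Bub1 at 0.95 on the log2 scale. Normexp left 2 of the 54 genes past 2-fold upwards here, and 126 of all 17851 compared in place of 329. Median centring gave 15 of the 54, and 534 of all 17851. Without LPS 0 of 54 genes were higher, where 3.07% of all genes were, and 0 were lower, where 3.89% of all were. That median was -0.04, or 0.01 with the arrays centred on their medians, and the genes ranged from -0.48 in Cenpk to 0.32 in Spc24. Without LPS 38.9% of the 54 genes were above 0, against 58.9% of all genes compared, whose median was 0.06.

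**Figure D3:**
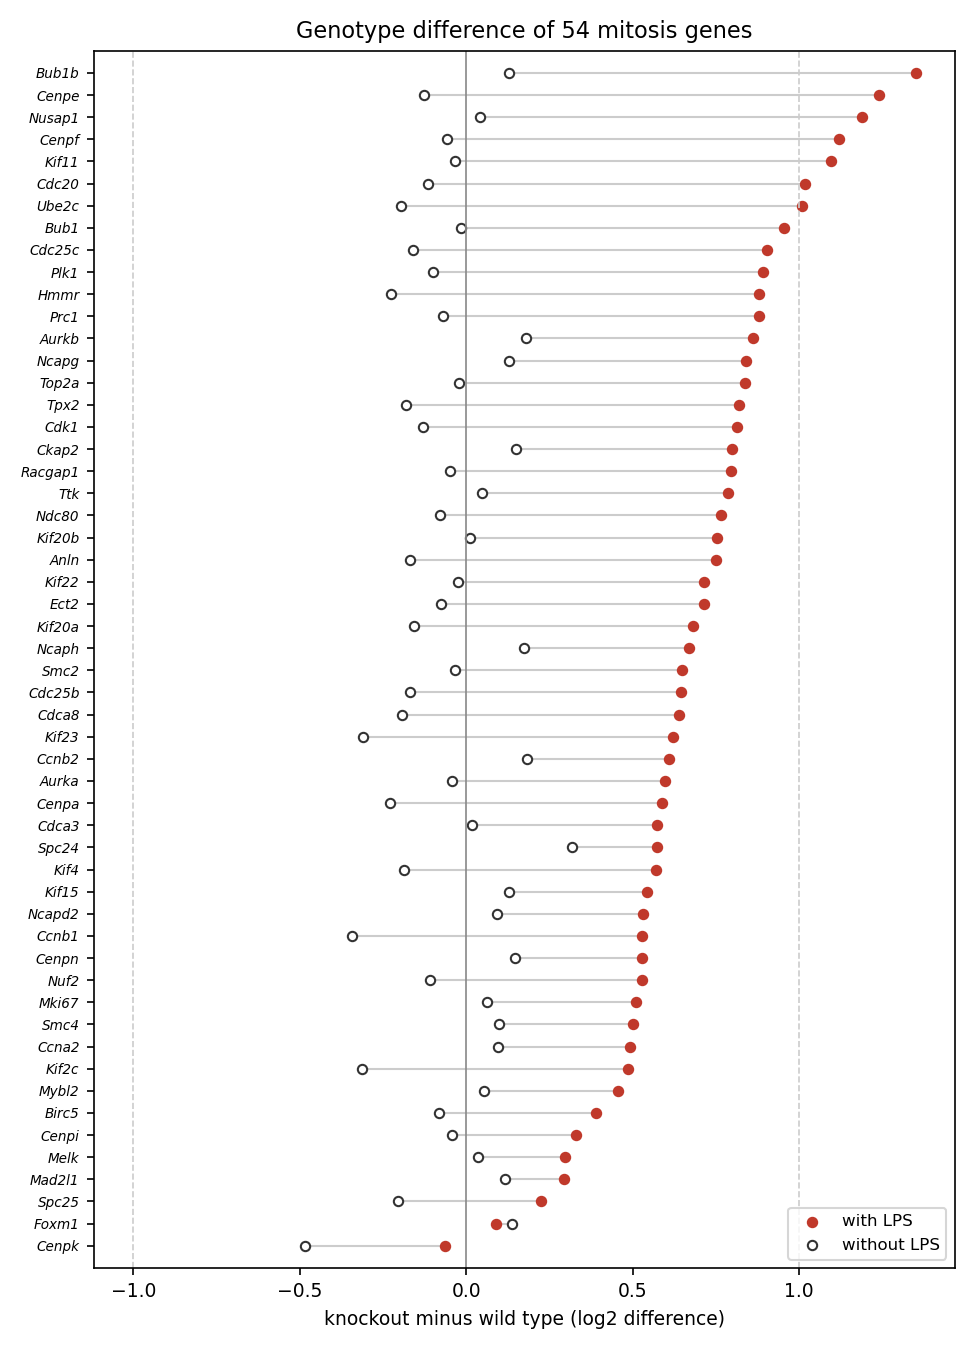
Knockout minus wild type (horizontal axis, log2 difference) for each of the 54 mitosis genes with LPS (filled red) and without LPS (open), sorted by the difference with LPS, with dashed lines at 2-fold. With LPS 7 genes lie past the right dashed line and 53 lie above 0, and without LPS all 54 lie between the dashed lines.

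The probes of a gene mostly gave 1 direction. Of the 54 genes 21 had 1 probe and 33 had several, and 92 of the 109 probes were above background on all 4 arrays, while 6 were above it on none. Beside the 54 probes used, 38 further probes of 26 genes were above background on all 4 arrays. All 38 lay below 0 in both genotypes, 29 were lower by 2-fold in knockout and 38 in wild type, and the decrease was smaller in knockout for 33. The 5 others were probes of Cenpk, Ncapg and Top2a. Top2a had 4 probes above background on all 4 arrays, with differences of the responses of 0.86, 1.14, -0.30 and -0.17, so its direction depended on the probe. Among the 38 further probes, that of Cenpf gave a difference of 0.82, and those of Cdc20 (1.26) and Hmmr (1.07 and 1.38) passed 2-fold. Past it on further probes only were Ttk (1.24 and 1.29), Ccnb1 (1.25 and 1.07), Racgap1 (1.23), Ncaph (1.03), Kif23 (1.02) and Top2a (1.14). In knockout minus wild type with LPS the further Cenpf probe gave 0.65, and those of Ttk 1.31 and 1.30. Further probes of Ncaph (1.05), Cdc20 (1.01) and Racgap1 (1.01) also passed 2-fold there, and those of Hmmr gave 1.03 and 0.76. Bub1b, Cenpe, Nusap1, Kif11 and Ube2c had 1 probe each, so no other probe checks them. Where the accession of a probe matched a RefSeq transcript, 82 probes of all 54 genes had a median difference of 0.80. Where it matched none, 10 probes of 8 genes had a median difference of 0.25, with median responses of -2.32 in knockout and -2.43 in wild type. These 10 probes were also dimmer, with a median log2 signal of 0.14 in untreated wild type, against 3.56 for the 82. The part of signal level and of the genes covered in this contrast was not tested. Both Top2a probes with a negative difference and the Ncapg probe were among these 10.

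Other genes of mitosis and of the cell cycle were set beside the 54. Of 77 further mitosis genes 46 were lower in knockout (59.7%, median -1.11) and 62 in wild type (80.5%, median -1.64). Psrc1, a spindle protein, was at -2.86 in knockout and -3.54 in wild type. Depdc1b was at -2.26 in knockout and -3.06 in wild type, and Aspm, which organises spindle poles, at -2.02 in knockout and -2.78 in wild type. Pimreg and Iqgap3 gave -2.16 and -1.94 in knockout and -2.65 and -2.66 in wild type. The difference of the responses had a median of 0.52 in this list and was above 0 in 69 of 77 genes. Fbxo5, the Emi1 inhibitor of the anaphase-promoting complex, ran the other way, with -2.99 in knockout and -2.39 in wild type. Named after their values were seen, Kif18b at 1.1 and Sgo2a at 1.03 were the 2 of the 77 with a difference past 2-fold, a share of 2.6% near the 1.68% of all genes, and Zwint was the 1 that was higher with LPS, at 1.28 in knockout and 1.09 in wild type.

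Cohesin, condensin II and core subunits of the anaphase-promoting complex work in the same steps and are made through much of the cell cycle. Of 26 such genes 2 were lower in knockout (7.69%, median -0.28) and 3 in wild type (11.5%, median -0.31), near the 12.5% of all genes lower in knockout and the 8.6% in wild type. The difference of the responses had a median of 0.05. The lower ones were the condensin II genes Ncapg2, at -2.02 in knockout and -2.12 in wild type, and Ncapd3, at -1.47 in knockout and -1.44 in wild type, with the cohesin kleisin Rad21 at -0.75 in knockout and -1.22 in wild type. Ncaph2 and Smc1a gave -0.88 and -0.71 in knockout and -0.97 and -0.82 in wild type. Wapl, which releases cohesin from chromosomes, was higher with LPS in knockout at 1.04 and stood at 0.61 in wild type.

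Replication licensing genes load and start the helicase of DNA replication. With LPS 10 of 16 were lower in knockout (median -1.14) and 6 of 16 in wild type (median -0.87). Of all genes compared 12.5% were lower in knockout and 8.6% in wild type. In this list the difference of the responses had a median of -0.16, and 0 genes passed 2-fold. It was below 0 in 15 of 16 genes, or in 11 of 16 with the arrays centred on their medians. Gmnn, the licensing inhibitor geminin, was at -2.02 in knockout and -1.60 in wild type. Gins1 and Gins2 of the helicase gave -1.85 and -1.78 in knockout and -1.69 and -1.19 in wild type. Mcm7 and Mcm5, helicase subunits, gave -1.73 and -1.31 in knockout and -1.58 and -1.25 in wild type, and the loader Cdc6 gave -1.53 in knockout and -0.90 in wild type. Without LPS 15 of these 16 genes were above 0 in knockout minus wild type, with a median of 0.30 and 0 past 2-fold. Over all genes compared 58.9% were above 0 there, with a median of 0.06. With LPS 9 of the 16 were above 0, with a median of 0.06, where 55.7% of all genes were above 0.

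Genes that control entry into the cycle moved in both directions with LPS. Of 35 G1 cyclins, inhibitors and E2F and pocket proteins compared, 8 were higher (22.9%) and 12 lower (34.3%) in knockout, and 7 were higher (20%) and 9 lower (25.7%) in wild type. Ccnd2, a D-type cyclin, was 4.97 higher in knockout and at least 5.77 higher in wild type, where the untreated array was not above background. Gadd45b, a stress and growth arrest gene, was 4.37 higher in knockout and 3.42 in wild type. Gadd45a was at least 3.64 higher in knockout and 2.84 higher in wild type, but -0.58 in wild type with the mean of its probes. The repressors E2f7 and E2f8 were lower, at -3.03 and -2.73 in knockout and -2.04 and -2.27 in wild type, and Tfdp2, a partner of E2F proteins, was at -3.27 in knockout and -2.55 in wild type. Named after their values were seen, Ccne1 at -1.55, E2f4 at -1.28, E2f1 at -1.19 and Ccnd1 at -1.03 passed 2-fold downwards in the difference of the responses and Cdk6 at 1.41 upwards. That was 12.1% of the list downwards and 3.03% upwards, where 2.91% of all genes passed downwards and 1.68% upwards. Cdk6 was at -1.55 in knockout minus wild type without LPS. Over the 33 genes of this list above background on all 4 arrays the difference of the responses had a median of -0.10, or 0.02 at the highest of the alternatives.

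**Figure D4:**
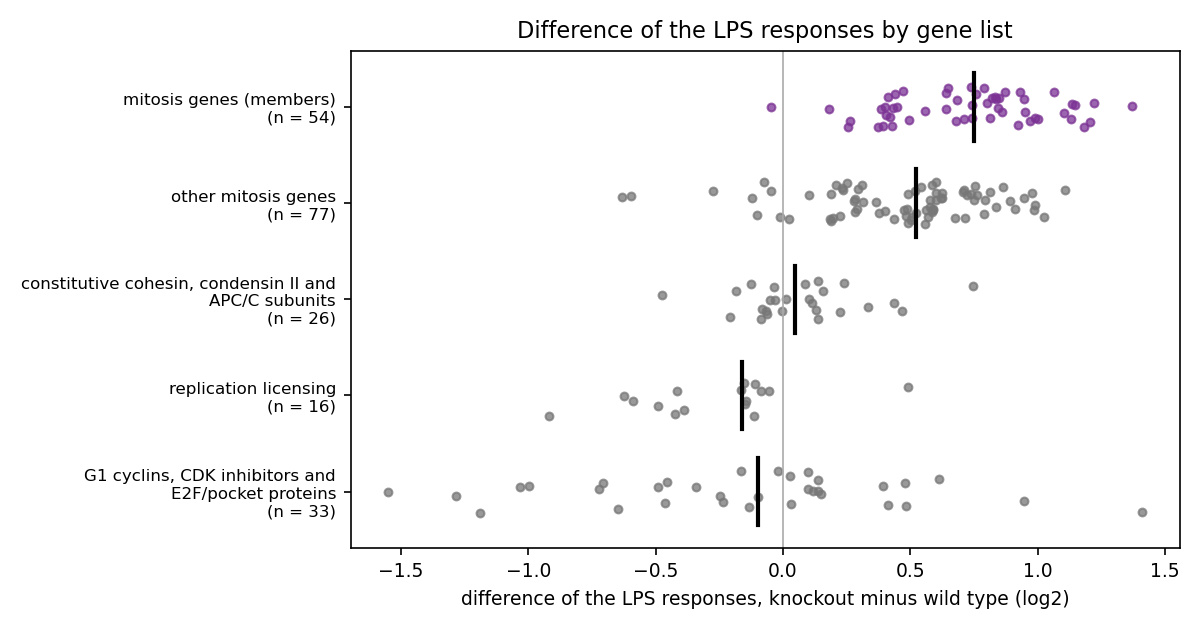
Difference of the LPS responses, knockout minus wild type (horizontal axis, log2), for each gene of the 54 mitosis genes (purple) and of 4 other lists (grey), with a black bar at the median of each list. The medians are 0.75 for the 54 genes, 0.52 for the other mitosis genes, 0.05 for the constitutive subunits, -0.16 for replication licensing and -0.10 for the G1 list.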

How the data were processed

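RNA labelled with Cy3 from RAW264.7 cells was read on 4 1-colour Agilent arrays. Per the file headers, the deposited intensity values are signals of Agilent Feature Extraction 10.7.1.1, with background already subtracted by that software, and the submitters' processing notes name version 9.5.1.1. The deposited flags for background and outlier spots were used as given per the file headers. A deposited series table of normalised intensities, taken to log2 here, served as an alternative. On the log2 scale 56544 to 56578 of its 56605 probes were within 0.01 of quantile-normalised probe means.

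Outlier spots were left out, log2 values of the spots of a probe were averaged, and the 75th percentile of all non-control probes was subtracted on each array. The probe kept for a gene had a value on all 4 arrays and signal above background on 1 or more of them, and was the brightest by mean of these. Where 1 of the arrays compared was dim it was set to a bound. No test was made, with 1 array per group. How the rule for calling a gene higher or lower holds up against variation between cultures was not tested. Gene names are those of the array design, and 32994 probes (58.3%) were also named through their accession in a RefSeq table (GRCm38.p6).

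The 54 genes and the lists were chosen with earlier results of these data known. Values on all arrays are given for the 4 genes with the largest mean LPS response in each role list (2 in the list of 2) and for those past 2-fold between genotypes or responses. Of the other lists up to 6 genes are named by the same measure, other than those said to be named later and the markers Lyz2, Cd68, Itgam, Mrc1, Cd163, Col1a1 and Epcam, which were chosen after their values were seen and are given for detection only. Tools were Python 3.11.15 with numpy 2.4.6, pandas 2.3.3 and matplotlib 3.10.9, and limma 3.58.1 in R 4.3.3. The alternatives were background correction by normexp (offset 50), quantile normalization, centring on array medians or on 7 spike-in probes, the deposited table, a filter on dim probes made stricter or removed, averaging the probes of a gene, a 1.5-fold threshold, and promoter stretches before the start.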

Additional observations from a re-analysis of the deposited data

How the results depend on the processing

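The 54 mitosis genes lay below 0 in both LPS responses under every alternative tried, and 53 to 54 of them had a difference of the responses above 0. Median centring, which put the all-gene median at 0.14 for the LPS response in knockout, 0.12 for the difference of the responses and 0.21 for the genotype difference with LPS, gave a median of -1.142 for the LPS response in knockout and 0.8261 for the genotype difference with LPS, with 16 genes past 2-fold in the difference of the responses and 15 in the genotype difference with LPS. It also turned the genotype difference without LPS to 0.006302. Over all genes it moved the count past 2-fold upwards from 263 to 358 in the difference of the responses. In the genotype difference with LPS it moved that all-gene count from 329 to 534. Spike-in centring, which put the all-gene median at -0.24 in knockout and -0.21 in wild type, gave median LPS responses of -1.518 in knockout and -2.27 in wild type. Relative to the all-gene median these medians were -1.28 in knockout and -2.07 in wild type under all 3 centrings. Each centring subtracts 1 constant from an array, so this sameness is fixed by arithmetic and is no check. Normexp gave -1.973 in wild type, 6 genes past 2-fold in the difference of the responses and 2 in the genotype difference with LPS. Over all genes normexp moved the upward counts to 145 and 126 in those comparisons. A 1.5-fold threshold gave 36 and 34 of the 54 genes there. The all-gene counts at 1.5-fold are not given, so 36 and 34 have nothing to be read against. In the bases before the start a CHR was in 38% of the windows of the mitosis genes and CHR with CCAAT in 34%. Gadd45a turned to -0.5832 in wild type with the mean of its probes. Of 2160 values of single mitosis genes recomputed, 29 fell below 2-fold, 35 passed it and 0 changed sign from a call. The stricter and the removed filter on dim probes could change none of these values, because every mitosis gene was above background. The deposited table closely repeats quantile normalization, so the 2160 values overstate how many separate checks were made. No paired analysis was possible because each group has 1 array. All 54 genes were above background on all 4 arrays, and the number of arrays limits every value.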
